A study of Mus musculus with 10 samples.

Results

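The genes described here carry glucose into the cell, break it down to pyruvate and lactate, move lactate across the membrane, and store or release glucose as glycogen. They are 36 genes listed by name, and a gene counted as measured where the platform annotation gave a probe set (a group of probes read as 1 value) with that gene symbol and no other. For a gene with several such probe sets, the brightest over all 10 arrays was taken. By this rule 32 of the 36 genes were measured, out of 22180 genes on the array, and all 32 also passed the filter on dim probe sets. The other 4 are Aldoa, whose only listed probe set is shared with Aldoart1, Pgm1, whose only listed probe set is shared with Itgb3bp, and Gpi1 and Eno1, which no entry of the annotation used here names. The balance between Aldoa and Aldoc, between Eno1 and Eno2 and between Pgm1 and Pgm2 was therefore not analysed here.

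The study set cells of wild-type mice, called control, against cells of mice labelled FMR1_KO, with 5 arrays in each group. In both groups the cells came from the cortex at an age of 8 weeks and were sorted by fluorescence as astrocytes through an EGFP reporter. Both groups thus carried the reporter according to the protocol, and neither a treatment nor the reporter's promoter, the strain, the sex or any pooling of animals is given. The Fmr1 product, FMRP, binds many mRNAs and holds back their translation. Values are log2 signal per probe set, so a difference of 1 is a doubling of signal, and levels of different probe sets are not on a common scale.

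Astrocytes take up glucose at the blood vessels, run much of it through glycolysis, and hold most of the glycogen of the brain. Lactate made from that glucose can leave the cell through monocarboxylate transporters and be burned by neurons. Many steps have several isoforms encoded by separate genes, and cell types use them in different mixtures: Aldoc is a classical astrocyte gene, whereas Hk2 and the Slc16a3 transporter are known as hypoxia-inducible genes of highly glycolytic cells. The transcription factor HIF-1, which turns on many glycolysis genes when oxygen is low, binds DNA at a short core often written ACGTG.

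That core was searched on both strands, as ACGTG or CACGT, in the 250 bases upstream of each RefSeq gene start (mouse assembly GRCm38.p6). The palindrome CACGTG, the E-box bound by other factors, holds the core on both strands and counts as 2 overlapping matches. Of the 32 measured genes, 30 had a promoter entry, and 18 of these 30 (60%) held a match in at least 1 window. Among all 27025 genes with an entry, 4998 (18.5%) did. Counted by window, 21 of 43 windows of these genes (48.8%) and 5444 of 32851 windows of all genes (16.6%) held one. A match describes letters in a window and not a bound site. Base composition was not matched between these genes and all genes, and why the shares differ was not tested. Windows of 4 genes are shown in lower case with the matches in capitals. Ldha, lactate dehydrogenase A, had the most matches, with 5. Slc16a3, a lactate exporter, had 2. Pygb and Aldoc have the lowest p among the genes with a higher mean in the KO-labelled group, and the windows shown held 1 match and 0 matches. All 4 lie on the plus strand, at chr7:46845554-46845803 for Ldha, chr11:120948817-120949066 for Slc16a3, chr2:150786546-150786795 for Pygb and chr11:78322823-78323072 for Aldoc.
Ldha: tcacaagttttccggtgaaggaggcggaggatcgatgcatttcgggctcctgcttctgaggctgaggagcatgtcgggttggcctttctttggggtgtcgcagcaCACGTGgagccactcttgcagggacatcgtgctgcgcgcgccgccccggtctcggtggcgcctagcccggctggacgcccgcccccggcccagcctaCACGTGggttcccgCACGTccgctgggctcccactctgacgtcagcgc
Slc16a3: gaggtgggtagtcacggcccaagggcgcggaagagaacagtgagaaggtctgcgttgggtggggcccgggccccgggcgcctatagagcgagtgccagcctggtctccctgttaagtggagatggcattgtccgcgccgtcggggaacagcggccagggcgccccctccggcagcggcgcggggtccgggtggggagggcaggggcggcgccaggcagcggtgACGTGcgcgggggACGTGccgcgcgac
Pygb: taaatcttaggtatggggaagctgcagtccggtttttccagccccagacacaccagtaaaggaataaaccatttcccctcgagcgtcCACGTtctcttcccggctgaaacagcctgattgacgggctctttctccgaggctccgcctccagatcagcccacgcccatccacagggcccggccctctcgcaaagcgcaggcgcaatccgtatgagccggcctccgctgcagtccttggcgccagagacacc
Aldoc: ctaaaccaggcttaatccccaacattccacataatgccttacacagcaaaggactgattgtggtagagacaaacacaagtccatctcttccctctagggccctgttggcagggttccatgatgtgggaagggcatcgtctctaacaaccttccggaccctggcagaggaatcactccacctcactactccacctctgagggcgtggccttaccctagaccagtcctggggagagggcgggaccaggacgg
In Ldha, 4 of the 5 matches come from a pair of CACGTG palindromes, which start 145 and 48 bases upstream of the gene start. In Slc16a3 the matches start 27 and 14 bases upstream. The core in Pygb starts 163 bases upstream.

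Several features of the arrays bear on what follows. Fmr1 itself read 8.22 on average in the KO-labelled group and 8.04 in controls on the log2 scale, so its signal does not bear out the label, and the group is named by its label. Xist, expressed from the inactive X chromosome of females, read 10.60 and 10.98 on control arrays 2 and 3 and 4.98 to 5.23 elsewhere. The Y chromosome genes Uty, Kdm5d and Eif2s3y read 4.77 to 5.18 on control arrays 2 and 3 and 7.05 to 8.80 elsewhere. By these genes control arrays 2 and 3 had a female pattern, and the other controls and all KO-labelled arrays a male one. The part of sex in the group differences was not tested. The mean of 24 microglia markers stood lowest on 3 arrays, at 9.89 (control array 1), 9.75 (KO-labelled array 1) and 9.19 (KO-labelled array 2), and lay between 10.32 and 10.94 elsewhere. The mean of 25 astrocyte markers was highest on those 3 arrays, at 10.08, 10.46 and 10.55, against 9.33 to 9.75 elsewhere. Group means were lower in the KO-labelled group for all 24 microglia markers and higher for all 25 astrocyte markers. Of 18 neuron markers 14 passed the filter on dim probe sets (5.32). Over the arrays Snap25 read 6.14 to 6.59, Thy1 6.35 to 7.43, Nefh 6.38 to 7.79 and Camk2a 6.92 to 7.48, while Nefl, at 4.82 to 5.24, did not pass. Mean levels of the other lists ran from 6.04 to 6.24 for 14 neuron markers, 6.53 to 6.87 for 13 oligodendrocyte lineage markers, 6.53 to 6.90 for 13 endothelial markers, 6.90 to 7.46 for 10 pericyte and smooth muscle markers and 8.12 to 9.48 for 7 choroid plexus markers, and 0 of 6 erythroid markers were measured. Group means were also lower in the KO-labelled group for 7 of 7 choroid plexus and 11 of 13 endothelial markers. They were higher for 8 of 10 pericyte and smooth muscle markers. Neuron markers were 5 higher and 9 lower, and oligodendrocyte lineage markers 7 higher and 6 lower. In sorted bulk material, fewer cells of a type and less RNA per cell cannot be told apart.

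None of the 32 genes passed the test between the groups (limma, adjusted p under 0.05 over 17712 genes), as was true of 0% of all genes tested. The smallest adjusted p among them was 0.654, which was also the smallest of all genes. Before adjustment, 2 genes with a higher mean in the KO-labelled group had p under 0.05, Aldoc and Pygb, or 6.25% of the 32 beside 4% of all genes. On the lower side there was 1, Slc16a7, or 3.12% beside 3.53%. Those shares are near the background. Of the 32 genes 19 had a higher and 13 a lower mean, which is 59.4% higher beside 46.8% of all genes, and their median difference was 0.07 beside -0.01 over all genes. Without KO-labelled array 1 or array 2 the median was -0.01 and -0.002, and without control arrays 2 and 3 it was -0.06, so its sign rested on single arrays. The groups overlapped for all 32 genes, where they did not overlap with a higher mean for 0.429% and with a lower mean for 0.536% of all genes. The 95% intervals of the differences reached 0.21 to 0.67 to either side, with a median of 0.35. Smaller differences could not be resolved with 5 arrays a group. These intervals are not adjusted over genes, and those of Aldoc, Pygb and Slc16a7 leave out 0 though these genes did not pass. The median SD within groups was 0.28 for these genes and 0.18 over all genes. Hk2 (0.58), Ppp1r3c (0.53), Ugp2 (0.52) and Slc2a1 (0.52) varied most.

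**Figure D1:**
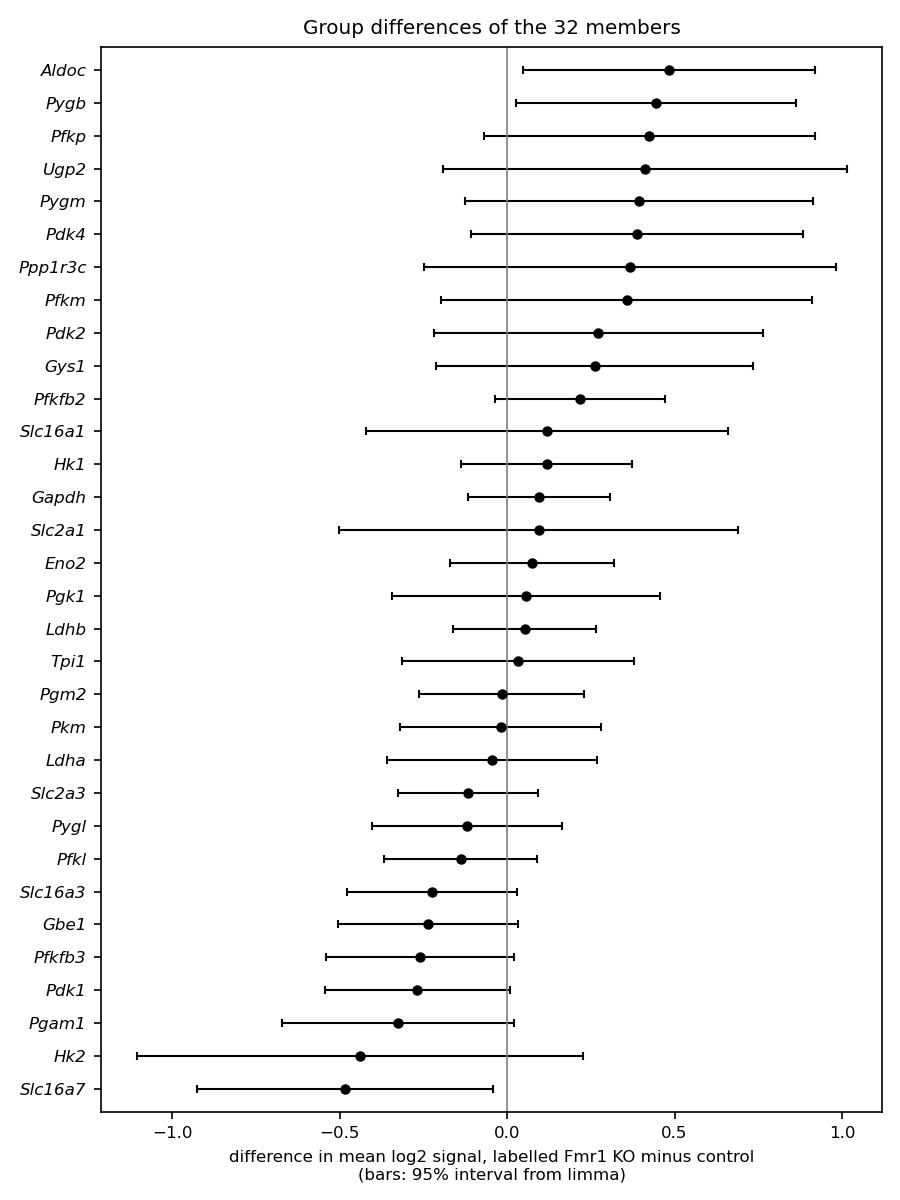
Difference in mean log2 signal (arrays labelled Fmr1 KO minus control, n = 5 each) for the 32 measured genes, ordered by size, with 95% intervals from limma as bars. The differences run from -0.48 for Slc16a7 to 0.48 for Aldoc, and the bars of all genes but Aldoc, Pygb and Slc16a7 cross 0.

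Glucose enters through Slc2a1, which encodes GLUT1, the transporter of astrocytes and brain vessels, and through Slc2a3, which encodes GLUT3, best known from neurons. Slc2a3 read 5.57, 5.47, 5.53, 5.34 and 5.66 on control arrays 1 to 5 and 5.38, 5.20, 5.52, 5.30 and 5.58 on KO-labelled arrays 1 to 5. These levels lie close to the filter of 5.32, the groups overlap, and the difference of -0.12 ± 0.10 (SE) did not pass (limma adjusted p = 0.754). Slc2a1 ran from 9.26 to 9.95 in controls and from 8.87 to 10.45 in the arrays labelled Fmr1 KO, which held both its highest values (10.31 and 10.45, arrays 1 and 2) and its lowest (array 5). Its means were 9.59 ± 0.28 and 9.69 ± 0.67 (SD, n = 5 each), a difference of 0.09 ± 0.27 (SE). That difference became -0.28 without control array 1 and KO-labelled arrays 1 and 2. A second, dimmer probe set of Slc2a1 differed by 0.14.

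Hexokinases trap glucose as glucose 6-phosphate. Hk1, the isoform of most brain cells, had means of 8.07 ± 0.20 in controls and 8.19 ± 0.18 in the arrays labelled Fmr1 KO (SD, n = 5 each). Hk2, the inducible isoform, read 7.91, 8.19, 8.72, 8.70 and 9.03 on control arrays 1 to 5. On KO-labelled arrays 1 to 5 it read 7.66, 7.09, 8.66, 8.67 and 8.26. The lowest readings were on the 3 arrays low in microglia markers, the other KO-labelled arrays lay within the control range, and the difference of -0.44 ± 0.31 (SE) did not pass (limma adjusted p = 0.708). Without those 3 arrays it was -0.13.

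Phosphofructokinase, the main control point of glycolysis, has 3 subunit genes. Pfkp, the platelet-type subunit that is also expressed in brain, read 9.64, 8.41, 8.82, 9.36 and 8.91 on control arrays 1 to 5 and 9.91, 9.66, 9.39, 9.35 and 8.96 on KO-labelled arrays 1 to 5. Controls 2, 3 and 5 were the lowest of the 10, control array 1 lay among the highest, and the difference of 0.42 ± 0.23 (SE) did not pass (limma adjusted p = 0.670). It was 0.27 without control array 2, 0.15 without control arrays 2 and 3 and 0.36 without the 3 arrays of lowest microglia marker mean. The muscle-type subunit Pfkm had means of 8.57 ± 0.40 in controls and 8.92 ± 0.55 in the arrays labelled Fmr1 KO (SD, n = 5 each), and its 3 highest values were 9.14 on control array 1, 9.42 on KO-labelled array 1 and 9.60 on KO-labelled array 2. Its difference of 0.36 ± 0.25 (SE) was 0.13 without control arrays 2 and 3 and 0.11 without the 3 arrays. The liver-type subunit Pfkl had means of 7.87 ± 0.11 and 7.73 ± 0.20 (SD, n = 5 each), so its difference of -0.14 ± 0.10 (SE) had the opposite sign.

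Pfkfb2 and Pfkfb3 make and break down fructose 2,6-bisphosphate, the strongest activator of phosphofructokinase. Pfkfb3 read 8.05, 8.23, 8.46, 8.59 and 8.49 on control arrays 1 to 5 and 7.93, 8.01, 8.28, 8.40 and 7.91 on KO-labelled arrays 1 to 5. KO-labelled arrays 1, 2 and 5 were below every control, arrays 3 and 4 were within the control range, and the difference was -0.26 ± 0.13 (SE; limma adjusted p = 0.658). Pfkfb2 differed the other way, by 0.22 ± 0.12 (SE): 4 controls lay between 7.67 and 7.89, below all KO-labelled arrays (8.00 to 8.26), while control array 1 read 8.32, the highest of all. Without control arrays 2 and 3 that difference was 0.09. Neither gene passed.

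**Figure D2:**
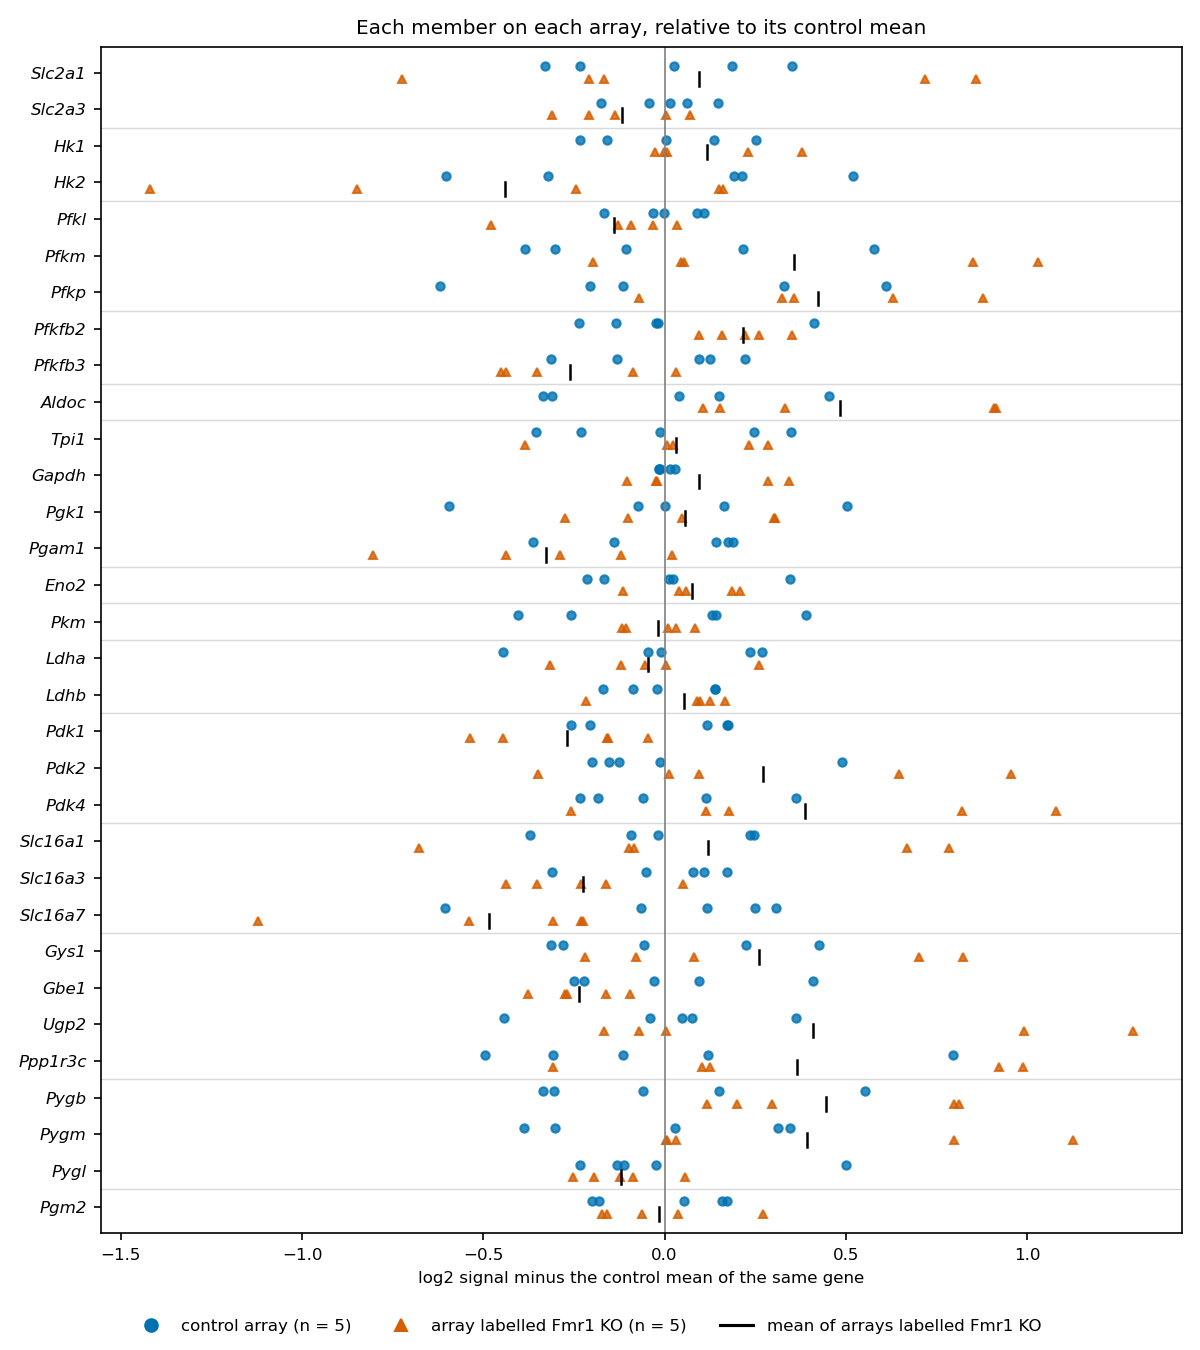
Log2 signal of each of the 32 genes on each array (x axis), minus the gene's control mean, with control arrays as circles, arrays labelled Fmr1 KO as triangles and the mean of the latter as a bar. Lines separate the steps of the pathway, and in every row the 2 groups overlap.

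Aldolase splits fructose 1,6-bisphosphate. Aldoc, the brain and astrocyte isoform, read 11.65, 10.86, 10.89, 11.35 and 11.24 on control arrays 1 to 5 and 12.11, 12.11, 11.35, 11.53 and 11.30 on KO-labelled arrays 1 to 5. All KO-labelled arrays were above the control mean of 11.20, but arrays 3 to 5 lay within the control range. Aldoc thus differed by 0.48 ± 0.20 (SE; 95% interval 0.05 to 0.92), which did not pass (limma unadjusted p = 0.0327, adjusted p = 0.654). It was 0.31 without the 3 arrays of lowest microglia marker mean and 0.27 without control arrays 2 and 3. The part of the astrocyte and microglia markers in it was not tested.

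The steps from triose phosphates to phosphoglycerate showed no common direction. Pgam1, phosphoglycerate mutase, read 8.45, 8.50, 8.17, 8.49 and 7.95 on control arrays 1 to 5 and 8.33, 8.19, 7.87, 8.02 and 7.51 on KO-labelled arrays 1 to 5. KO-labelled arrays 3 and 5 were below all controls, and the difference was -0.33 ± 0.16 (SE; limma adjusted p = 0.657). A second, dimmer probe set of Pgam1 differed by 0.0014, so the 2 probe sets disagree and the value of this gene is uncertain. Tpi1, triose phosphate isomerase, differed by 0.03 ± 0.16 (SE) and Pgk1, phosphoglycerate kinase, by 0.06 ± 0.18. Gapdh was nearly level over the controls at 11.77 ± 0.02 (SD, n = 5) and read 12.06 and 12.11 on KO-labelled arrays 1 and 2 but 11.67 to 11.75 on arrays 3 to 5. Its difference was 0.10 ± 0.10 (SE), beside 0.11 and -0.13 for its other probe sets. Further probe sets name Gapdh together with near-identical copies, so its value is uncertain.

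Eno2, the neuron-type enolase, had means of 6.78 ± 0.22 in controls and 6.86 ± 0.13 in the arrays labelled Fmr1 KO (SD, n = 5 each), a difference of 0.08 ± 0.11 (SE). Pkm, pyruvate kinase, whose splice forms this probe set does not separate, had means of 10.08 ± 0.32 and 10.06 ± 0.09 (SD, n = 5 each). Its difference of -0.02 ± 0.14 (SE) changed sign in 8 of 20 alternative analyses.

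Lactate dehydrogenase interconverts pyruvate and lactate, with the A subunit typical of lactate-making and the B subunit of lactate-using cells. Ldha read 7.03, 6.63, 7.07, 7.32 and 7.35 on control arrays 1 to 5 and 7.08, 7.34, 6.96, 7.03 and 6.76 on KO-labelled arrays 1 to 5. Ldhb read 9.07, 8.91, 8.76, 9.07 and 8.84 on control arrays 1 to 5 and 9.06, 9.10, 9.03, 9.02 and 8.71 on KO-labelled arrays 1 to 5. For both genes the groups lie over each other. The difference of Ldha was -0.05 ± 0.14 (SE; 95% interval -0.36 to 0.27) and that of Ldhb 0.05 ± 0.10 (SE; -0.16 to 0.27), with a limma adjusted p of 0.948 and 0.912.

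Pyruvate dehydrogenase kinases switch off the entry of pyruvate into mitochondria. Pdk1, the hypoxia-inducible isoform, read 7.74, 7.79, 8.17, 8.11 and 8.17 on control arrays 1 to 5 and 7.55, 7.46, 7.95, 7.84 and 7.84 on KO-labelled arrays 1 to 5. All 5 KO-labelled arrays were below the control mean of 8.00, arrays 3 to 5 lay within the control range, and the difference of -0.27 ± 0.13 (SE) did not pass (limma adjusted p = 0.655). It was -0.18 without the 3 arrays of lowest microglia marker mean. Pdk2, a common brain isoform, and Pdk4, the fasting-induced one, had the opposite sign, with differences of 0.27 ± 0.23 and 0.39 ± 0.23 (SE). Pdk2 read 9.02 on control array 1 and 9.18 and 9.49 on KO-labelled arrays 1 and 2, against 8.18 to 8.63 on the other 7. Pdk4 read 8.38, 8.84 and 9.10 on those 3 arrays and 7.76 to 8.19 on the others, and without those 3 arrays the differences were 0.04 for Pdk2 and 0.10 for Pdk4.

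Of the monocarboxylate transporters, Slc16a7 encodes MCT2, the high-affinity form known for lactate uptake by neurons. It read 7.00, 7.54, 7.86, 7.73 and 7.92 on control arrays 1 to 5 and 7.07, 6.49, 7.38, 7.38 and 7.30 on KO-labelled arrays 1 to 5. All 5 KO-labelled arrays were below 4 of the controls, and control array 1 lay below 4 of the KO-labelled arrays. Slc16a7 thus differed by -0.48 ± 0.20 (SE; 95% interval -0.93 to -0.04), short of the threshold (limma unadjusted p = 0.0338, adjusted p = 0.654). It was -0.41 without the 3 arrays of lowest microglia marker mean, -0.64 without control array 1 alone and -0.42 without control arrays 2 and 3. The part of the microglia and neuron markers in this value was not tested.

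Slc16a3 encodes MCT4, the low-affinity lactate exporter of glycolytic cells, and had means of 6.99 ± 0.19 in controls and 6.76 ± 0.19 in the arrays labelled Fmr1 KO (SD, n = 5 each), a difference of -0.23 ± 0.12 (SE). Slc16a1, or MCT1, the widespread form, spread from 7.30 to 8.77 in the arrays labelled Fmr1 KO and from 7.61 to 8.23 in controls. Its difference of 0.12 ± 0.25 (SE) became -0.23 without control array 1 and KO-labelled arrays 1 and 2, so its direction depended on those arrays. Neither passed the test (limma adjusted p = 0.664 for Slc16a3 and 0.924 for Slc16a1).

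Glycogen is built from UDP-glucose, made by Ugp2, by the synthase Gys1 and the branching enzyme Gbe1, while Ppp1r3c brings a phosphatase to the glycogen particle. Gbe1 read 6.97, 6.75, 6.78, 7.41 and 7.10 on control arrays 1 to 5 and 6.91, 6.73, 6.84, 6.73 and 6.63 on KO-labelled arrays 1 to 5. All KO-labelled arrays were below the control mean of 7.00, though control arrays 2 and 3 were as low, and the difference was -0.24 ± 0.12 (SE; limma adjusted p = 0.667) and -0.39 without those 2 arrays. The other 3 genes had higher means, by 0.41 ± 0.28 (SE) for Ugp2, 0.37 ± 0.28 for Ppp1r3c and 0.26 ± 0.22 for Gys1. Each of these 3 had its highest values on the same arrays. Ugp2 reached 10.14 and 10.44 on the first and second KO-labelled arrays and 9.51 on control array 1, against 8.71 to 9.23 elsewhere, and its difference without the 3 arrays was 0.01. For Gys1 that value was 0.03 and for Ppp1r3c 0.17.

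Glycogen phosphorylase releases glucose 1-phosphate from glycogen, and its brain-type gene Pygb read 10.27, 9.38, 9.41, 9.87 and 9.66 on control arrays 1 to 5 and 10.52, 10.53, 9.92, 10.01 and 9.83 on KO-labelled arrays 1 to 5. All KO-labelled arrays were above the control mean of 9.72, and all were above 3 of the controls. Pygb thus differed by 0.44 ± 0.19 (SE; 95% interval 0.03 to 0.86), short of the threshold (limma unadjusted p = 0.0389, adjusted p = 0.654). It was 0.34 without the 3 arrays of lowest microglia marker mean and 0.23 without control arrays 2 and 3. The muscle-type Pygm, also found in astrocytes, had means of 8.40 ± 0.34 and 8.79 ± 0.53 (SD, n = 5 each) with a difference of 0.39 ± 0.24 (SE), which was 0.09 without those 3 arrays. The liver-type Pygl differed by -0.12 ± 0.13 and Pgm2, named for phosphoglucomutase, by -0.02 ± 0.11 (SE).

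To ask whether the groups differed in which isoform carried a step, the log2 signal of one gene was subtracted from that of its partner within each array. The result is blind to the overall signal of an array, and only its shift between groups can be read, because probe sets differ in brightness. Of 19 pairs fixed, 16 could be formed, and none passed an exact two-sided permutation test over all assignments of the arrays to groups of 5 (smallest possible p 0.00794; smallest adjusted p over the 16 pairs 0.308). No pair had an unadjusted permutation p under 0.05, the count being 0, and the groups overlapped in each.

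The lowest p belonged to Pfkp minus Pfkl. This balance was 1.77, 0.71, 0.99, 1.38 and 0.95 on control arrays 1 to 5 and 2.16, 1.82, 1.48, 1.57 and 1.56 on KO-labelled arrays 1 to 5. All 5 KO-labelled arrays were above 4 of the controls, and the shift toward Pfkp was 0.56 ± 0.22 (SE; exact permutation p = 0.0556, adjusted 0.308). It was 0.53 without control array 1 and KO-labelled arrays 1 and 2. Leaving out control arrays 2 and 3 gave 0.36 (exact permutation p = 0.232). Without control array 1 alone it was 0.72, the largest shift of 16 alternative analyses. The exact permutation p was then 0.00794 (adjusted 0.127), the lowest of the 16 and the smallest such a test can give. That setting keeps KO-labelled arrays 1 and 2, which were low in microglia markers. Pfkm minus Pfkl shifted the same way by 0.50 ± 0.27 (SE; exact permutation p = 0.127, adjusted 0.308), whereas Pfkp minus Pfkm differed by 0.07 ± 0.14.

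For Pfkfb3 minus Pfkfb2, 4 controls gave 0.57 to 0.70 and control array 1 gave -0.27, while the KO-labelled group ran from -0.25 to 0.33. The difference of -0.48 ± 0.21 (SE) had an exact permutation p of 0.0794 (adjusted 0.308). Pygl minus Pygb differed by -0.57 ± 0.28 (SE) with the same p. Over 16 alternative analyses the former ran from -0.66 to -0.37 and the latter from -0.73 to -0.43. In the first of these control array 1, which was low in microglia markers, lay below all KO-labelled arrays.

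Pdk4 minus Pdk1 had the largest shift, 0.66 ± 0.38 (SE; exact permutation p = 0.135, adjusted 0.308), and was 1.29 and 1.64 on KO-labelled arrays 1 and 2 yet -0.08 to 0.36 on arrays 3 to 5. Pdk2 minus Pdk1 differed by 0.54 ± 0.38, Slc16a7 minus Slc16a1 by -0.60 ± 0.48 and Hk2 minus Hk1 by -0.56 ± 0.45 (SE). Without control array 1 and KO-labelled arrays 1 and 2 these 4 values were 0.29, 0.23, -0.18 and -0.18. Ldhb minus Ldha differed by 0.10 ± 0.15 (SE; exact permutation p = 0.548, adjusted 0.652), with 1.495 to 2.27 in controls and 1.76 to 2.07 in the arrays labelled Fmr1 KO. The remaining pairs were Slc2a3 minus Slc2a1 at -0.21 ± 0.38, Pdk4 minus Pdk2 at 0.11 ± 0.06, Slc16a3 minus Slc16a1 at -0.34 ± 0.35, Slc16a7 minus Slc16a3 at -0.26 ± 0.15, Pygm minus Pygb at -0.05 ± 0.13 and Pygl minus Pygm at -0.51 ± 0.32 (SE). Slc2a3 minus Slc2a1 turned to 0.03 without KO-labelled array 2 and to 0.25 without control array 1 and KO-labelled arrays 1 and 2. Slc16a3 minus Slc16a1 was -0.12 and -0.005 in these cases.

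**Figure D3:**
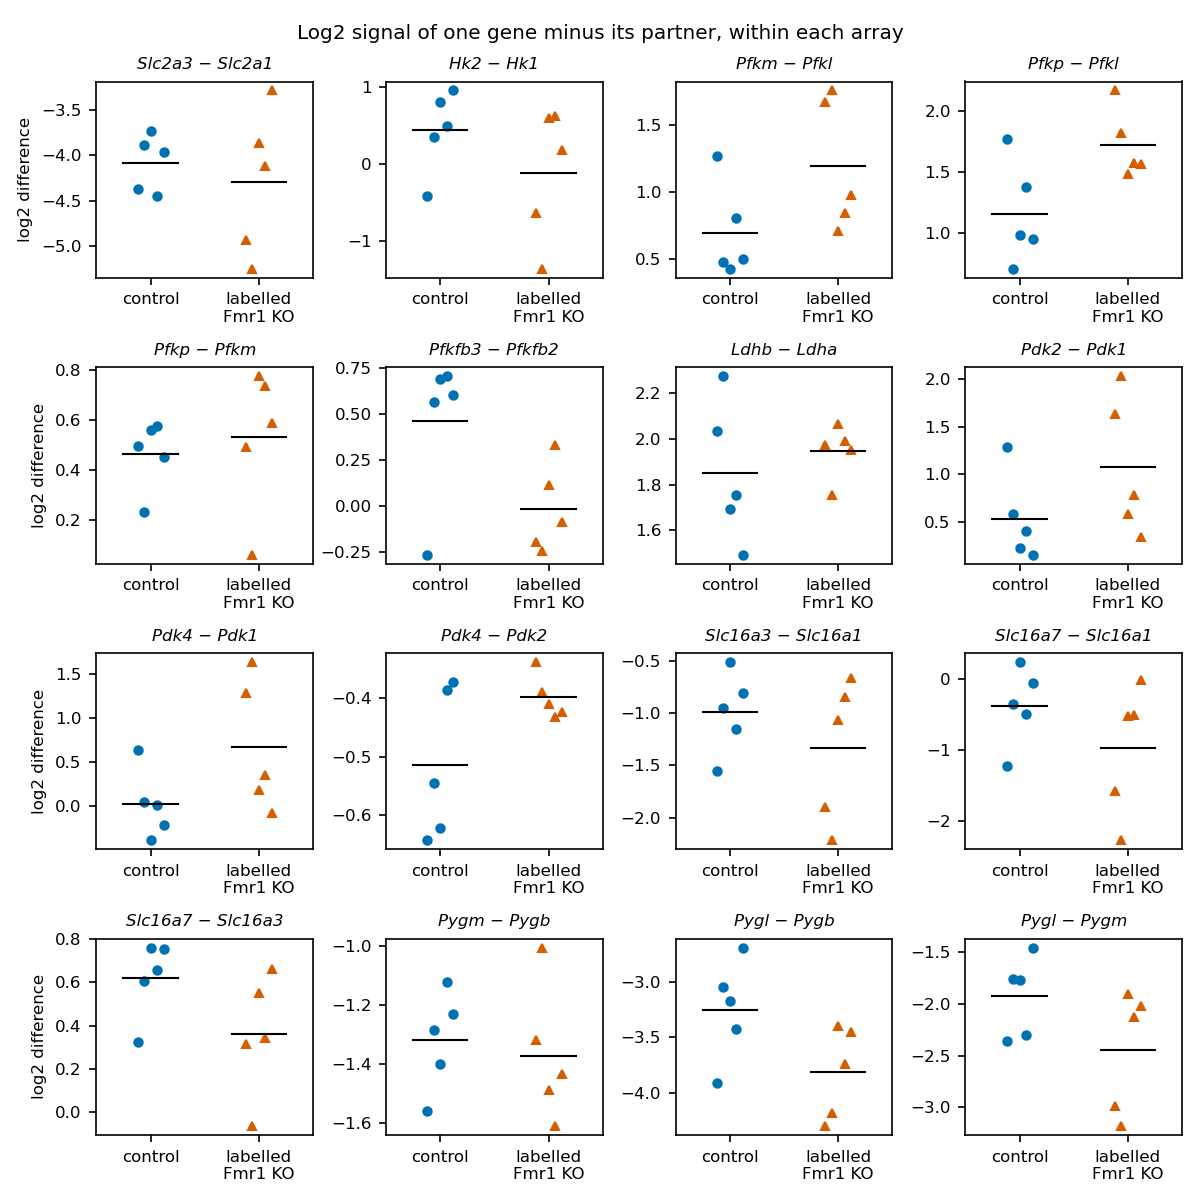
Log2 signal of one gene minus that of its partner within each array (y axis, each panel on its own scale), for 16 pairs, with control arrays as circles, arrays labelled Fmr1 KO as triangles and group means as lines. The groups overlap in every panel, and in Pfkfb3 minus Pfkfb2 control array 1, at -0.27, stands apart from the other controls.

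Across arrays, some of the genes ran in opposite directions. For 13 of the 32 genes (40.6%) the 3 highest values lay on control array 1 and KO-labelled arrays 1 and 2, the arrays highest in astrocyte and lowest in microglia markers. This was so for 1778 of 17712 genes tested (10%). The 13 are Slc2a1, Hk1, Pfkm, Pfkp, Aldoc, Pgk1, Pdk2, Pdk4, Slc16a1, Gys1, Ugp2, Ppp1r3c and Pygb. For Hk2, Pdk1 and Slc16a7 (9.38%, beside 7.24% of all genes) the 3 lowest values lay there. Some isoforms of single steps fell on opposite sides, with Hk1 against Hk2, Pdk2 and Pdk4 against Pdk1, and Slc16a1 against Slc16a7. These were named after the order was seen, and the share on the lower side is near that of all genes. In other steps isoforms did not split: Pfkm and Pfkp were on the same side, and Pfkl, Pfkfb2, Pfkfb3, Ldha, Ldhb, Pygm and Pygl on neither. Control array 1 and KO-labelled arrays 1 and 2 were picked out by their marker means. The part of cell mixture in the values of these genes was not tested.

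**Figure D4:**
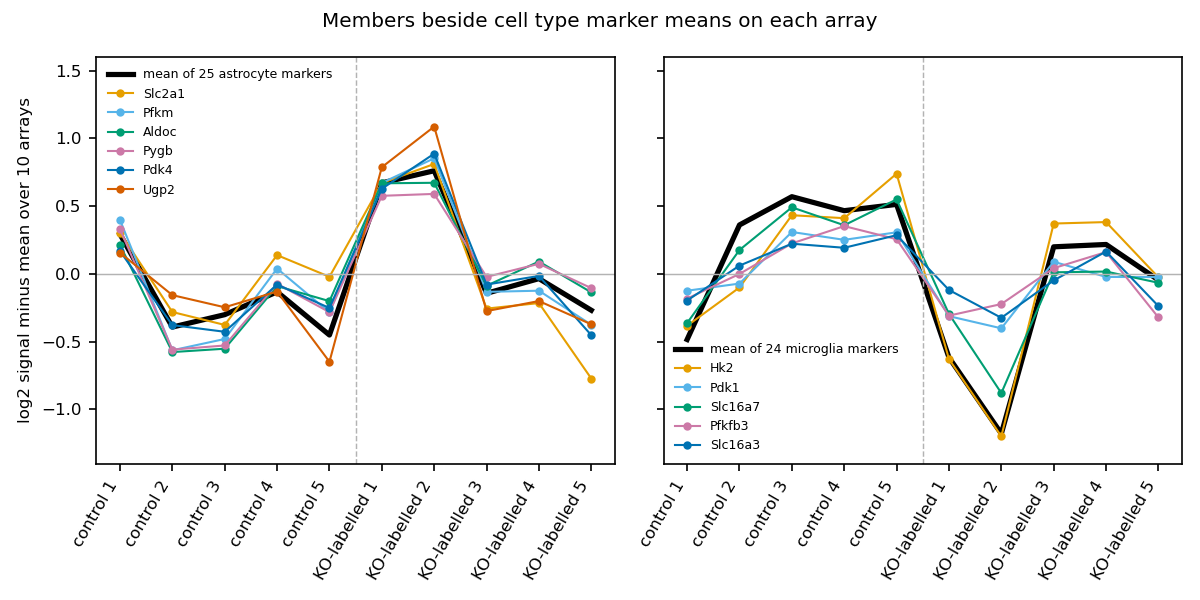
Log2 signal minus its mean over the 10 arrays (y axis) for control arrays 1 to 5 and KO-labelled arrays 1 to 5 (x axis). Left, 6 genes with the mean of 25 astrocyte markers in black; right, 5 genes with the mean of 24 microglia markers in black, genes having been picked after their values were seen. KO-labelled arrays 1 and 2 are highest on the left, and KO-labelled array 2 is lowest on the right for the marker mean and all genes but Pfkfb3.

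Genes around these steps gave the same absence of calls. Of 110 further genes listed for neighbouring reactions and their control, 98 were tested and 0 passed (limma adjusted p under 0.05), with a median difference of -0.04. By mean, 40 were higher and 58 lower, which is 40.8% higher beside 46.8% of all genes. Before adjustment 1 higher and 4 lower ones had p under 0.05, or 1.02% and 4.08% beside 4% and 3.53% of all genes, shares near or below the background. The 1 higher was Irs1, an insulin receptor substrate, at 0.39 ± 0.16 (SE). Among 20 genes of hypoxia and glucose sensing, 6 higher and 14 lower, Txnip, which restrains glucose uptake, had means of 11.12 ± 0.45 in controls and 10.42 ± 0.58 in the KO-labelled group (SD, n = 5 each), a difference of -0.70 ± 0.27 (SE). The pentose phosphate list, 2 higher and 5 lower of 7, was led by Rpia, ribose phosphate isomerase, at -0.29 ± 0.10 (SE). Of 12 genes for the entry of pyruvate into mitochondria 6 were higher and 6 lower, and the kinase Pdk3 differed by -0.28 ± 0.11. In the 17 genes of glycogen regulation, 10 higher and 7 lower, the phosphatase subunit Ppp1ca differed by -0.42 ± 0.15. These values share an adjusted p of 0.654.

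The remaining lists held no gene at an unadjusted p under 0.05. Other glucose transporters, hexokinases and phosphatases were split 6 to 6 of 12, with Slc2a5, a fructose transporter, at -0.54 ± 0.32 (SE). Slc2a5 was lowest on the arrays low in microglia markers, at 8.99 on control array 1 and 8.98 and 8.43 on KO-labelled arrays 1 and 2. Elsewhere it read 9.37 to 10.27, and the part of cell mixture in its difference was not tested. Other glycolysis isoforms were also split 6 to 6 of 12, with Ldhd, a D-lactate dehydrogenase, at 0.24 ± 0.13. Of 10 NADH shuttle genes 3 were higher and 7 lower, with the mitochondrial glycerol phosphate dehydrogenase Gpd2 at 0.37 ± 0.21. Of 8 partners and relatives of the lactate transporters 1 was higher and 7 lower, with Slc16a4 at -0.21 ± 0.13.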

How the data were processed

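RNA of 10 samples of sorted cells, 5 control and 5 labelled Fmr1 KO, was turned into amplified, biotin-labelled cDNA with Affymetrix kits, per the labels' protocols. The authors deposited log2 signal per probe set, a scale read from the values (4.31 to 13.9; array medians 6.11 to 6.24), and no centring per probe set was seen. The comparison was made in GeneSpring, per the series' design text; how background, normalization and probe set summary were handled is not given in the sources used here. With 10 arrays, their number limits the precision.

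Of 33793 probe sets, 23521 name 1 gene in the platform annotation, 1814 several and 8458 none. Probe sets of 1 gene were kept, the brightest per gene, with a mean at or above the 25th percentile of all probe sets (5.32), leaving 17712 genes. Groups were compared two-sided with limma 3.58.1 (lmFit, eBayes; R 4.3.3), p-values being adjusted over all genes by Benjamini-Hochberg, and paralog pairs with an exact permutation test over samples. Both were tested on simulated data. The titles call the replicates biological without naming animals, so p-values reflect only the spread among these samples, which may be technical. Values on every array are given for the gene with the lowest p in each step that has several genes, and for Aldoc, Ldha and Ldhb; of the other pathway genes, the one with the lowest p in each list is given, and Irs1, the only one with an unadjusted p under 0.05 and a higher mean, was named after its value was seen. The genes, lists, pairs and alternatives were chosen with earlier results of these data known. Alternatives were other normalization, filters, probe set summaries and variance models, the replicate number as a block, and leaving out arrays. Promoters are RefSeq sequences of GRCm38.p6, matched by symbol and gene ID.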

Additional observations from a re-analysis of the deposited data

Results flagged for a closer look

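Among 64 sets of 5 values (32 genes in 2 groups), 3 held a value far from the other 4 by Dixon's criterion, which chance meets in about 1 of 20 sets, and among 32 sets of pair balances 1 did. Ldhb read 8.71 on KO-labelled array 5, against 9.02 to 9.10 on the others of its group. Pdk2 read 9.02 on control array 1, against 8.33 to 8.52 on the other controls. Pygl read 6.97 on control array 5, against 6.24 to 6.45. Pfkfb3 minus Pfkfb2 was -0.27 on control array 1, against 0.57 to 0.70.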

How the results depend on the processing

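With 5 arrays a group, 0 of the 32 genes and 0 of the 16 pairs passed the adjusted threshold as reported, and none did under any of the 20 alternatives run for the genes and 16 for the pairs. At an unadjusted p under 0.05 the count of these genes was 3 as reported, near the share of all genes given above, and it varied over the alternatives. The share of all genes under each alternative is not given here, so that variation is not read as a result. Over all genes, 0 passed, and 1 did without control replicate 5 and 1 without control array 1 and KO-labelled arrays 1 and 2; leaving out single arrays gave 0 to 1. The median difference of the 32 genes, 0.07, was -0.01 to 0.14 when single arrays were left out. Aldoc differed by 0.27 to 0.60, Pygb by 0.23 to 0.58 and Slc16a7 by -0.64 to -0.33 over the alternatives, with limma adjusted p from 0.208 to 0.973. The sign of Pkm changed in 8 of 20 alternatives, that of Tpi1 in 6, of Slc2a1 in 5 and of Pgk1, Slc16a1 and Pgm2 in 4 each. Without control arrays 2 and 3, 7 of the 32 genes changed sign. Of the pairs, Slc2a3 minus Slc2a1 changed sign in 2 of 16 alternatives and Pygm minus Pygb in 1. Deviations of same-numbered arrays correlated at -0.02 to 0.53, over 0.1 in 3 of 5 cases. These values do not settle whether the replicate numbers pair the arrays, and the fit as reported did not use the numbers. With the replicate block 0 genes passed adjusted (0 of these 32 and 0 pairs), and the median difference of the 32 genes was 0.07. For the pairs, 5 paired arrays allow no p under 0.0625.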
